A study of Mus musculus with 9 samples.

Results

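The complement genes described here are 9 genes, C3, C4b, Cfb, C1ra, C1s1, C2, C5ar1, Serping1 and Cfp, taken by symbol from a table of 54453 Ensembl mouse genes. All 9 were found, and all 9 passed the filter on low counts in the 9 tumors. Messenger RNA was sequenced from whole primary pancreatic tumors of KPC mice, a genetically engineered model of pancreatic ductal adenocarcinoma in which a Cre recombinase switches engineered alleles in the pancreas. The tumors were 5 labelled Scrib null, with the genotype written as KPF/+CSF/F (tumors 7, 14, 15, 18 and 23), and 4 labelled Scrib WT, written as KPF/+C (tumors 2, 3, 6 and 9). Both groups thus carry the KPC alleles, and they differ in the label by the Scrib allele, a gene for a scaffold protein of epithelial polarity. The promoter that drives Cre, the age of the mice and whether each tumor came from a separate mouse are not given in the sources used here. Accordingly, p-values cover only the spread between these 9 tumors.

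Complement is a cascade of plasma and cell surface proteins that marks targets for phagocytosis, recruits leukocytes and can form pores in membranes. In the classical route C1q binds a target and activates the proteases C1r and C1s, which cleave C4 and C2 to build an enzyme that cleaves C3. In the alternative route factor B joins C3b to form such an enzyme, and properdin stabilises it. Hepatocytes make most of the circulating proteins, while macrophages, fibroblasts and epithelial cells, those of tumors included, also transcribe many of these genes.

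Levels are given as CPM, a gene's counts scaled by the total of the library after TMM adjustment, which corrects for depth but not for gene length. Total estimated counts ran from 19281212 to 27596832 in the Scrib null tumors and from 10145830 to 26502285 in the Scrib WT tumors, and the lowest count of any complement gene in any tumor was 48.0, for C2. Scrib mRNA averaged 60.3 ± 24.6 CPM in Scrib null tumors (SD, n = 5) and 70.5 ± 21.4 CPM in Scrib WT tumors (SD, n = 4), and the difference did not pass the test (edgeR log2 fold change -0.23, SE 0.31, adjusted p = 0.712). It was 102.2, 53.8, 55.4, 53.2 and 36.9 CPM in tumors null 7, 14, 15, 18 and 23, against 88.5, 44.1, 62.0 and 87.4 CPM in tumors WT 2, 3, 6 and 9. Tumor null 7 thus had the highest Scrib level of all 9, against its label, and WT 3 lay below 4 of the 5 Scrib null tumors. The gene total does not show single exons and so does not check the labels, and the groups are used as labelled. All 10 markers of ductal and tumor epithelium were detected in all 9 tumors. Tumor null 7 held the lowest summed level of 7 of the 9 cell type marker lists, and tumor WT 3 the highest of neutrophil markers. In whole tumors, fewer cells of a type and less RNA per cell cannot be told apart.

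No complement gene passed the test between Scrib null and Scrib WT tumors (quasi-likelihood test of edgeR, with p adjusted by Benjamini-Hochberg over 16169 genes and a threshold of 0.05), where 0.0124% of all genes did. Adjusted p ran from 0.224 to 0.716, and DESeq2 and limma-voom also called 0 of the 9, where DESeq2 called 3.39% of the 18418 genes to which it gave an adjusted p and limma-voom 0.0124% of 16169. The log2 fold change was below 0 for 8 of 9 genes, against 52.2% of all genes, and the median was -1.06, against -0.03 over all genes tested. C3 alone had a value above 0. Without adjustment, 3 genes had an edgeR p under 0.05 and were lower in Scrib null tumors, Cfp, Cfb and Serping1, against 10.0% of all genes, and 0 as higher, against 7.64%. The groups overlapped for all 9 genes, while 6.91% of all genes had groups that did not, 3.42% with Scrib null tumors higher and 3.49% with them lower. The count of 3 was 7 without tumor null 15, 5 without WT 6 and 1 without null 18 or without WT 2, and without WT 2 the median was -0.61. Without tumor null 7, whose Scrib level went against its label, the count was 2 and the median -0.90.

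**Figure D1:**
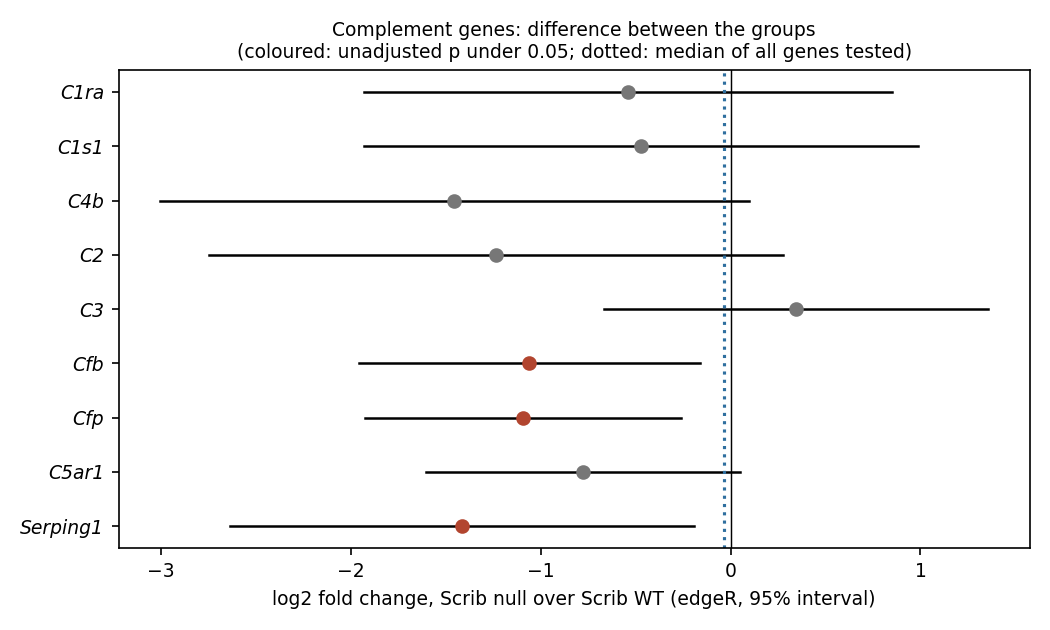
Log2 fold change, Scrib null over Scrib WT, of the 9 complement genes (points) with the 95% confidence interval of the edgeR fit (lines). Cfb, Cfp and Serping1 have intervals below 0, from an unadjusted test; C3 is the 1 gene above 0, and the dotted line marks the median of all genes, -0.03.

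The proteases that start the classical route, C1ra and C1s1, lie 6901 bases apart on mouse chromosome 6 (GRCm38) and point toward each other. C1ra (chr6:124512405-124523443, plus strand) encodes C1r, which activates C1s. Its level was 6.26, 17.6, 75.1, 15.3 and 26.7 CPM in tumors null 7, 14, 15, 18 and 23, against 58.5, 24.9, 19.5 and 61.3 CPM in tumors WT 2, 3, 6 and 9. C1s1 (chr6:124530345-124542359, minus strand) encodes C1s, the protease that cleaves C4 and C2. Its level was 10.7, 44.5, 184.8, 26.8 and 81.7 CPM in the same Scrib null tumors, against 135.4, 75.9, 55.1 and 120.3 CPM in the same Scrib WT tumors. For both genes the highest and the lowest tumor were Scrib null, tumors 15 and 7, with the Scrib WT tumors between them. The log2 fold change was -0.54 for C1ra (SE 0.63, edgeR adjusted p = 0.655) and -0.47 for C1s1 (SE 0.66, edgeR adjusted p = 0.716), and without tumor null 15 they were -1.32 and -1.24 (edgeR adjusted p = 0.253 and 0.285). Without tumor null 7 they were -0.26 and -0.17 (edgeR adjusted p = 0.822 and 0.879). Near-identical copies of both, C1rb and C1s2, held at most 6.30% and 3.04% of the counts of each pair in any tumor, and how reads were divided between copies cannot be seen in gene totals. C1s1 also shares 576 exon bases with the antisense gene Gm16567, which reached 0.191 CPM.

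The ratio of C1s1 to C1ra varied less from tumor to tumor than either gene alone. In CPM per kb of exon, C1s1 was at 1.63 to 2.91 times C1ra in the Scrib null tumors and at 1.87 to 2.90 times in the Scrib WT tumors, while C1s1 itself varied 17.3-fold among the Scrib null tumors. Because these neighbours varied together, their RefSeq promoters (GRCm38.p6, 250 bases before and 50 after the start, written 5′ to 3′ on the gene's strand) are shown, with motif matches in capitals. The windows are chr6:124512371-124512670 for C1ra and chr6:124542310-124542609 for the upstream of 2 RefSeq starts of C1s1. For C1ra the RefSeq start lies inside the gene span given above, and most of the window overlaps that span.
C1ra: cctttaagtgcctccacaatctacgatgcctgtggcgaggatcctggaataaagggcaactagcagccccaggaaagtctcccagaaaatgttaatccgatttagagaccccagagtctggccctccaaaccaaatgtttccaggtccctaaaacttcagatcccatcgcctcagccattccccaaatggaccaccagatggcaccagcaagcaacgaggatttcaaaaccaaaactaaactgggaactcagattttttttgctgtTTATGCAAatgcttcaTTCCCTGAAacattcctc
C1s1: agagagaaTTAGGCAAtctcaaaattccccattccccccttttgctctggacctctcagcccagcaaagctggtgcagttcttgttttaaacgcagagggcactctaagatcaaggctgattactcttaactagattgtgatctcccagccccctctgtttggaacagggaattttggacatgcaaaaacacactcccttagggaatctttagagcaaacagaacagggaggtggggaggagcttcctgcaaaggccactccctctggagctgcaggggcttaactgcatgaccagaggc
The motifs searched on both strands were the STAT motif GAS (TTCNNNGAA), the interferon motif ISRE, the C/EBP motif TTGCNNAA and the NF-kappaB motif, and a base can belong to more than 1 match. The C1ra window held a C/EBP match at 17 to 24 and a GAS match at 33 to 41, counted from the RefSeq start. The C1s1 window held a C/EBP match at -242 to -235, and the window at the downstream start, which overlaps it, held none of the 4. Of 32851 mouse promoters of this length, 10.8% held the C/EBP, 8.30% the GAS, 3.44% the ISRE and 8.46% the NF-kappaB motif, so the pair shared no match that is rare among promoters.

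C4b and C2 encode the components that C1s cleaves, and together their fragments form the classical C3 convertase. C4b (chr17:34728380-34743882, minus strand) had 37.4, 49.3, 172, 45.9 and 96.2 CPM in tumors null 7, 14, 15, 18 and 23, against 541.2, 66.8, 47.7 and 223.9 CPM in tumors WT 2, 3, 6 and 9. C2 (chr17:34862604-34898265, minus strand), which supplies the protease, had 2.42, 7.89, 27.3, 6.96 and 14.3 CPM in the Scrib null tumors, against 57.1, 8.33, 13.7 and 32.1 CPM in the Scrib WT tumors. Tumors WT 2 and WT 9 held the 2 highest levels of both genes, while WT 3 and WT 6 lay among the Scrib null tumors. C4b averaged 80.2 ± 56.2 CPM in Scrib null tumors (SD, n = 5) and 219.9 ± 228.3 CPM in Scrib WT tumors (SD, n = 4), where the SD exceeded the mean. The log2 fold change was -1.45 for C4b (SE 0.70, edgeR adjusted p = 0.304) and -1.24 for C2 (SE 0.68, edgeR adjusted p = 0.351). Without tumor WT 2 these were -0.49 and -0.61 (edgeR adjusted p = 0.660 and 0.622). The summed level of hepatocyte markers was 3.31 to 8.29 CPM in the Scrib null tumors and 5.77 to 12.8 CPM in tumors WT 3, 6 and 9, while tumor WT 2 reached 95.1 CPM. Their part in the C4b and C2 values was not tested. The close copy C4a, 95.9% identical over the aligned transcript, held at most 7.06% of the counts of the pair, and C2 shares 161 exon bases with Zbtb12 on the other strand, which this table cannot separate if strand was not kept.

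C3 (chr17:57203970-57228136, minus strand) encodes the protein on which all routes converge. It alone had a log2 fold change above 0. In tumor null 7 it was 0.59 above its mean over the 9 tumors in log2 CPM, where the other 8 genes were below theirs. Its level was 600.5, 329.6, 974.8, 197.2 and 376.7 CPM in tumors null 7, 14, 15, 18 and 23, against 557.5, 294.8, 220.9 and 487.2 CPM in tumors WT 2, 3, 6 and 9. The 2 highest levels of C3 were in Scrib null tumors, 15 and 7, and so was the lowest, in tumor 18. It averaged 495.8 ± 304.7 CPM in Scrib null tumors (SD, n = 5) and 390.1 ± 158.3 CPM in Scrib WT tumors (SD, n = 4). The fold was 1.27, with a 95% interval from 0.63 to 2.56 (edgeR log2 fold change 0.35, SE 0.46, adjusted p = 0.698). The direction itself was not fixed by these tumors, since the log2 fold change was -0.06 without tumor null 15. Tumor null 7 combined the second highest C3 with the lowest level of 7 other complement genes, so that in CPM per kb C3 exceeded C4b 17.8-fold there, against 4.34-fold to 7.41-fold in the other Scrib null tumors and 1.14-fold to 5.13-fold in the Scrib WT tumors.

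The C3 promoter (RefSeq, chr17:57228087-57228386, minus strand) is shown because C3 alone had a log2 fold change above 0, again with the motif match in capitals.
C3: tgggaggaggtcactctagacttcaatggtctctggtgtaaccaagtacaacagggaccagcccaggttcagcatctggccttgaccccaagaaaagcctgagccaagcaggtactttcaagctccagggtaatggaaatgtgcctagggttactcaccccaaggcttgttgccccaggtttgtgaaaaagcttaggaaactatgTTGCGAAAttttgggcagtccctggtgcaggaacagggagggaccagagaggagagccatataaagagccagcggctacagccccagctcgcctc
It held 1 match to the C/EBP motif, at -45 to -38, and none to the other 3 motifs. The windows of C1ra and C1s1, genes with log2 fold changes below 0, held C/EBP matches too. C/EBP factors are known regulators of C3 in liver cells, and their part in the C3 values here was not tested. Cebpb averaged 177.8 ± 45.3 CPM in Scrib null tumors (SD, n = 5) and 158.3 ± 66.2 CPM in Scrib WT tumors (SD, n = 4), and Cebpd 61.8 ± 16.0 and 78.8 ± 11.3 CPM in the same order (edgeR adjusted p = 0.807 and 0.412). The windows of C5ar1 and Cfp held none of the 4 motifs. C4b, Cfb, C2 and Serping1 were not matched in the promoter table.

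The alternative route was represented by Cfb and Cfp. Cfb (chr17:34856374-34862518, minus strand), which encodes factor B, had 55.4, 32.1, 137.5, 46.2 and 104.8 CPM in tumors null 7, 14, 15, 18 and 23, against 141.2, 221.9, 148.4 and 116.2 CPM in tumors WT 2, 3, 6 and 9. Of the 5 Scrib null tumors 4 lay below every Scrib WT tumor, and tumor null 15 lay within their range. Cfp (chrX:20925454-20931555, minus strand) encodes properdin, which leukocytes make. It had 21.2, 55.4, 46.5, 30.9 and 74.5 CPM in the Scrib null tumors, against 141.8, 82.2, 55.8 and 110.9 CPM in the Scrib WT tumors. Here tumor null 23 lay above the lowest Scrib WT tumor, WT 6, and 4 of 5 lay below it. Of these, tumor null 14 was almost level with WT 6, at 55.4 against 55.8 CPM. Cfb was at 0.479 of the Scrib WT level in the fit (95% interval 0.257 to 0.895, edgeR log2 fold change -1.06, adjusted p = 0.242), and Cfp at 0.468 (95% interval 0.263 to 0.833, edgeR log2 fold change -1.09, adjusted p = 0.224). Cfb and C2 encode related proteases and lie 85 bases apart on the same strand, and in CPM per kb Cfb exceeded C2 5.58-fold to 31.4-fold in the Scrib null tumors and 3.39-fold to 36.5-fold in the Scrib WT tumors. A gene annotated as reading through both, Gm20547, was listed at 0 in all tumors.

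C5ar1 (chr7:16246743-16259540, minus strand) encodes the receptor through which the fragment C5a attracts and activates myeloid cells. It had 10.5, 20.0, 21.1, 14.1 and 22.9 CPM in tumors null 7, 14, 15, 18 and 23, against 40.2, 24.0, 12.5 and 44.9 CPM in tumors WT 2, 3, 6 and 9. The Scrib WT tumors fell into a higher pair, 2 and 9, and 2 tumors near the Scrib null range (edgeR log2 fold change -0.78, SE 0.38, adjusted p = 0.304). It varied least within the Scrib null group, 2.17-fold from lowest to highest. Serping1 (chr2:84765387-84775444, minus strand) encodes C1 inhibitor, which shuts off C1r and C1s. It had 20.3, 140.5, 190.6, 106.7 and 108.0 CPM in the Scrib null tumors, against 330.5, 184.4, 152.1 and 540.2 CPM in the Scrib WT tumors. Tumor null 15 alone of its group exceeded any Scrib WT tumor, and tumor null 7 lay far below the others. The mean was 113.2 ± 62.1 CPM in Scrib null tumors (SD, n = 5) and 301.8 ± 176.9 CPM in Scrib WT tumors (SD, n = 4), with a fold of 0.375 (95% interval 0.161 to 0.875, edgeR log2 fold change -1.41, adjusted p = 0.245). Relative to its target C1s1, Serping1 was at 1.39 to 5.36 times the CPM per kb in the Scrib null tumors and at 3.27 to 6.04 times in the Scrib WT tumors.

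**Figure D2:**
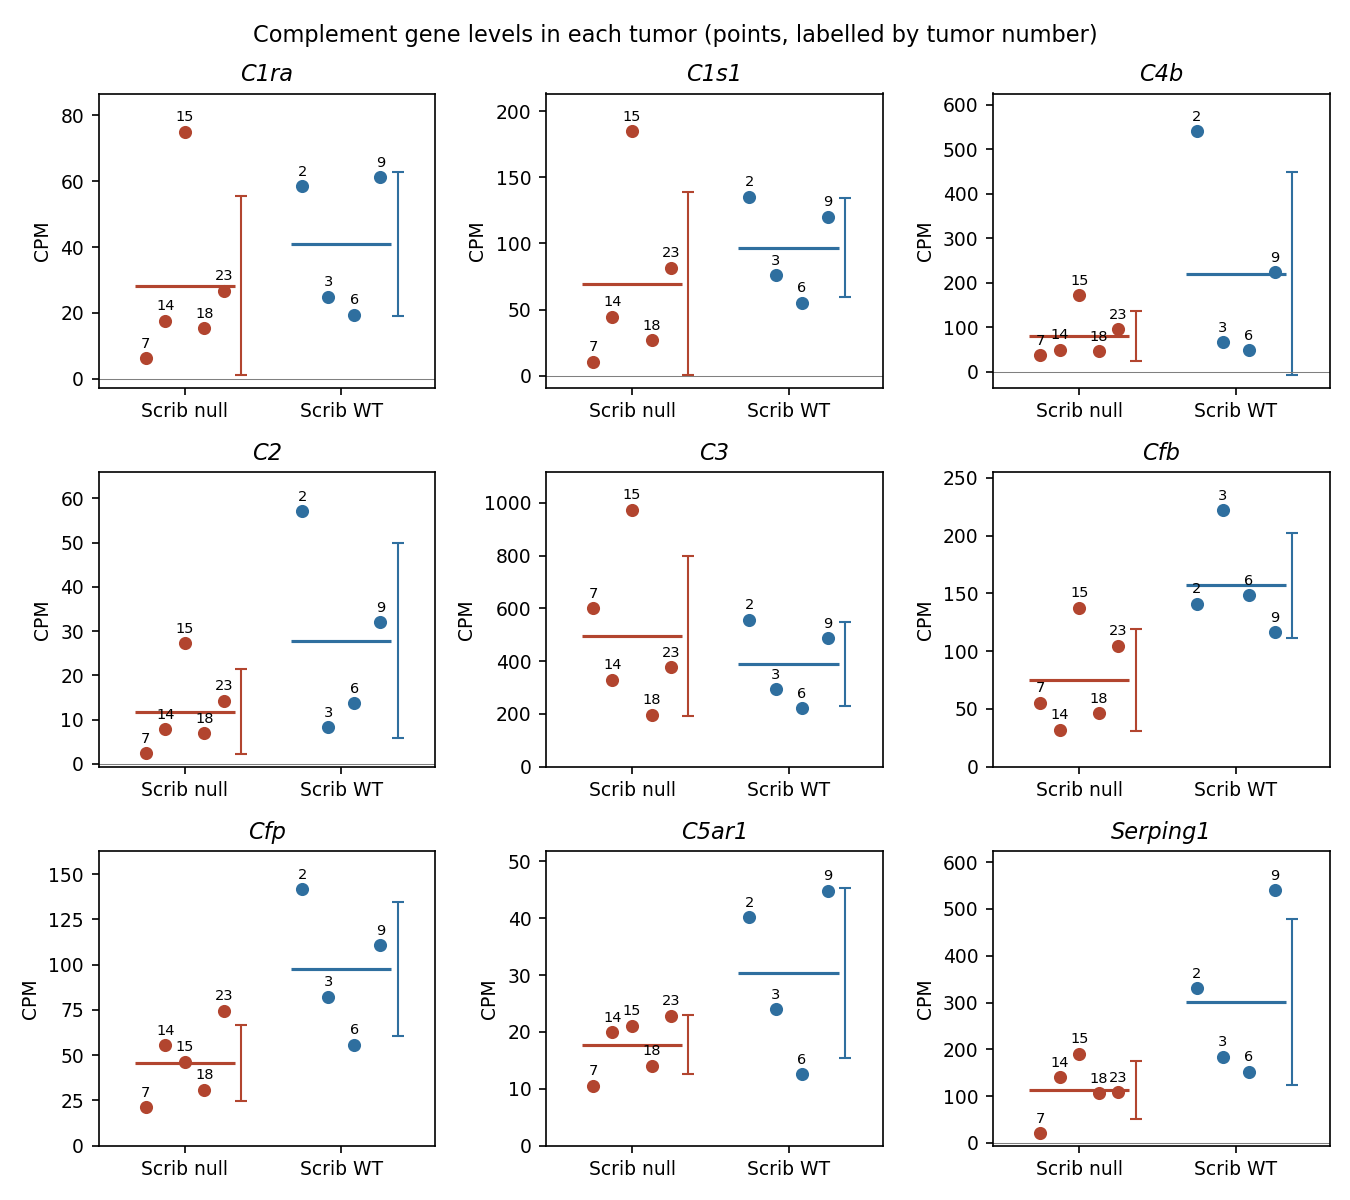
CPM of each complement gene in each tumor (points, labelled by tumor number), Scrib null left and Scrib WT right, on a linear axis, with the group mean (line) and SD (bar). Tumor null 15 is the highest of all for C3, C1ra and C1s1, and tumors WT 2 and WT 9 are the highest for C4b and C2.

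Divided by merged exon length, the levels over the 9 tumors ran from C3, with a mean of 87.3 ± 47.2 CPM per kb (SD, n = 9), and Serping1, with 84.7 ± 66.0, through Cfp with 39.6 ± 22.2 and Cfb with 39.5 ± 21.3. Then came C1s1 with 26.1 ± 17.9, C4b with 24.98 ± 28.6, C1ra with 11.4 ± 8.19, C5ar1 with 9.09 ± 4.63 and C2 with 4.88 ± 4.47 CPM per kb. C2 was the lowest of the 9 in every tumor, and C5ar1 exceeded it in 9 of 9. Several neighbours in this order could not be ranked: C3 exceeded Serping1 in 4 of 9 tumors, Cfp exceeded Cfb in 5, C1s1 exceeded C4b in 6 and C1ra exceeded C5ar1 in 5.

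Most of the complement genes varied together between tumors, whichever group these belonged to. Tumors null 14 and null 18 had all 9 genes below their means over the 9 tumors, and tumors WT 2 and WT 9 had all 9 above. Tumor null 15 had 8 above, with a mean deviation of 0.76 on the log2 scale, close to the 1.02 of tumor WT 9. Tumor WT 6 had 6 below, with a mean deviation of -0.28.

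**Figure D3:**
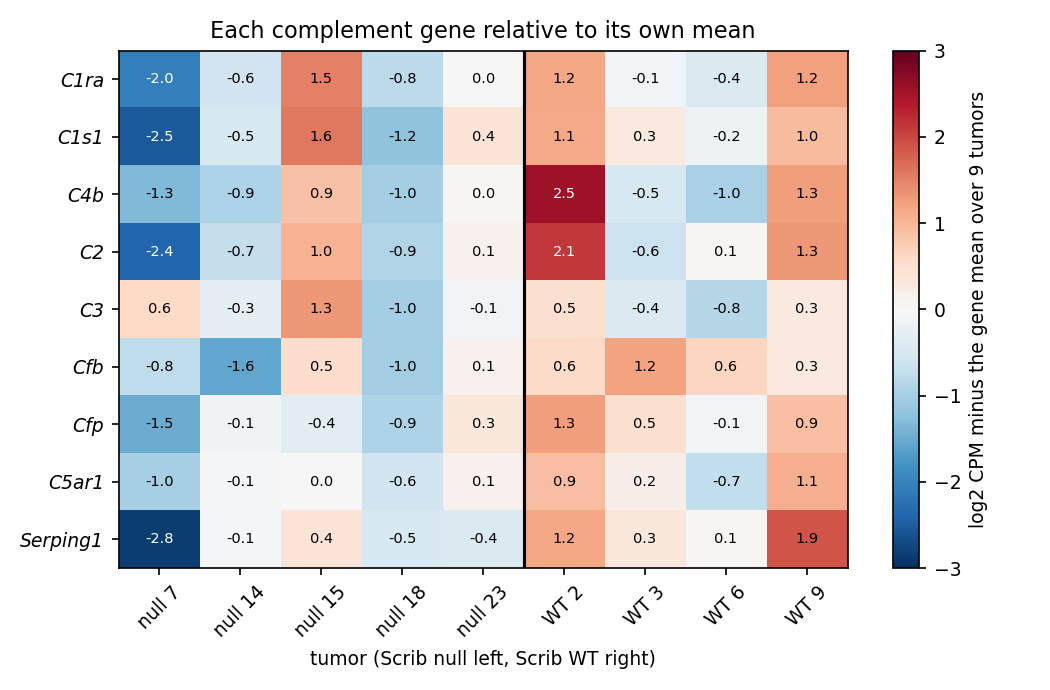
Log2 CPM of each complement gene minus its mean over the 9 tumors, Scrib null tumors left of the line and Scrib WT tumors right, red above and blue below the mean. The columns of tumors null 14, null 18, WT 2 and WT 9 each keep to 1 side of the mean. The others are mixed, among them null 7, where C3 is at 0.6 and Serping1 at -2.8, and WT 3, with 5 genes above and 4 below.

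Over the 9 tumors all 36 pairs of complement genes had a Pearson r above 0 in log2 CPM. Of these, 20 pairs passed an exact two-sided permutation test (Benjamini-Hochberg adjusted p under 0.05 over the 36 pairs), with 19 by Spearman's rho. The share over pairs of all genes tested was not computed. These counts thus do not show a link particular to complement genes. C1ra and C1s1 were closest (r = 0.97, permutation p = 8.27e-06, adjusted p = 0.000298; rho = 0.98, adjusted p = 0.00179; r = 0.93 without tumors null 7 and null 15). C4b and C2 followed the same way (r = 0.91, permutation p = 0.000187, adjusted p = 0.00337; rho = 0.95, adjusted p = 0.00635; r = 0.82 without tumors WT 2 and WT 9), as did C1ra with C2 (r = 0.94, permutation p = 0.000537, adjusted p = 0.00615; rho = 0.92, adjusted p = 0.00787; r = 0.92 without tumors null 7 and null 15). C5ar1 and Cfp, both genes of leukocytes, formed another close pair (r = 0.90, permutation p = 0.0018, adjusted p = 0.00923; rho = 0.87, adjusted p = 0.0162; r = 0.84 without tumors null 7 and WT 9). Some pairs rested on the outlying tumors: C1s1 and Cfp had r = 0.79 (permutation p = 0.0113, adjusted p = 0.0240; rho = 0.63, adjusted p = 0.137) and r = 0.30 without tumors null 7 and null 18. With group means removed, r was 0.96 for C1ra and C1s1, 0.89 for C4b and C2 and 0.88 for C5ar1 and Cfp.

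C3 and Cfb were in none of the 20 pairs. C3 had r from 0.03 with Serping1 to 0.55 with C4b (permutation p = 0.938 and 0.123, adjusted p = 0.938 and 0.177; rho = 0.28 and 0.43, adjusted p = 0.505 and 0.310), and without tumors null 15 and null 18 these were -0.15 and 0.48. Tumor null 7, where C3 alone was above its mean, stays in all these values. The r of C3 without that tumor is not given, so they do not show whether C3 departs in the other tumors. Cfb had r = 0.64 at most, with C1s1 (permutation p = 0.0600, adjusted p = 0.0982; rho = 0.52, adjusted p = 0.243; r = 0.69 without tumors null 14 and null 18). Its neighbour C2 gave r = 0.54 (permutation p = 0.140, adjusted p = 0.193; rho = 0.50, adjusted p = 0.256; r = 0.49 without tumors null 14 and null 18). The count of 20 pairs was 13 with group means removed, 11 without tumor null 7 or without WT 9, 12 without WT 2 and 13 without null 18. The identifier ranges held 4 and 5 tumors, too few for a correlation within either.

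**Figure D4:**
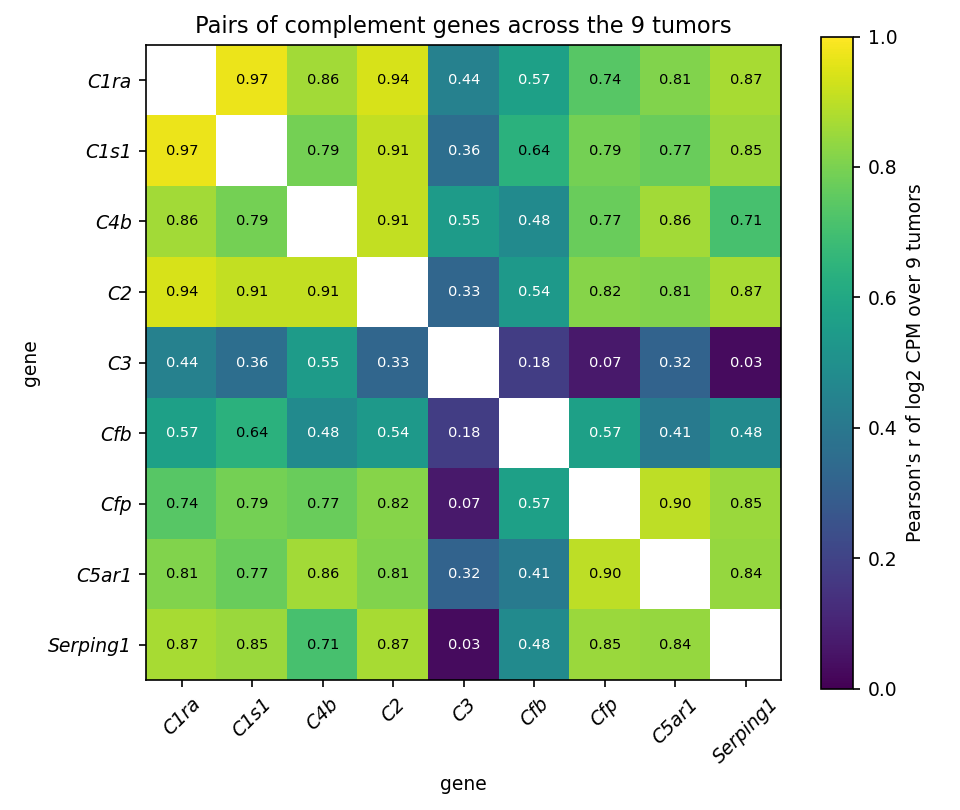
Pearson's r of log2 CPM over the 9 tumors for each pair of complement genes. C1ra, C1s1, C4b, C2, Cfp, C5ar1 and Serping1 form a block from 0.71 to 0.97, and the C3 row holds the lowest values, from 0.03 to 0.55.

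The genes whose levels over the 9 tumors were most like each complement gene were taken by Pearson r among 12152 genes, as a description. For Cfp these were Renbp and Tbxas1 (r = 0.984 and 0.982), the gene for thromboxane synthase, and for C5ar1 the myeloid receptor genes Sirpa and Tlr2 (r = 0.973 and 0.969). C1ra was nearest to Chl1 (r = 0.979) and C1s1 to Selenoo (r = 0.963). C2 was nearest to Casp12 and Hspa12a (r = 0.981 and 0.976), C4b to the protease gene Adamts15 and the lysosomal gene Man2b1 (r = 0.974 and 0.965), and Serping1 to Arsi and Enpp3 (r = 0.979 and 0.977). Cfb was nearest to Nudt16 and to the interferon-inducible gene Mndal (both r = 0.958). C3 had the weakest nearest genes, Cnp and the membrane protease gene Mme (r = 0.897 and 0.892).

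Of 50 other complement genes, 32 passed the filter on low counts, and none passed the edgeR test over all genes (DESeq2 called 1, against 3.39% of all genes, and limma-voom 0). Their log2 fold change was below 0 for 28 of 32, with a median of -0.79, against -0.03 over all genes. Before adjustment 9 had an edgeR p under 0.05 and were lower, against 10.0% of all genes, and 1 was higher, against 7.64%. The count of 10 in both directions was 3 without tumor WT 9, 4 without WT 2, 5 without null 18 and 6 without null 7 or without null 15.

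Among recognition molecules and initiating proteases all 10 tested genes had values below 0. The genes of the C1q chains, which macrophages make, had similar values. C1qa averaged 197.9 ± 58.5 CPM in Scrib null tumors (SD, n = 5) and 339.9 ± 113.2 CPM in Scrib WT tumors (SD, n = 4), and log2 fold changes were -0.78, -0.79 and -0.75 for C1qa, C1qb and C1qc (edgeR adjusted p = 0.245, 0.242 and 0.282). Fcna, which encodes the lectin ficolin A, had 8.48 to 29.0 CPM in the Scrib null and 19.3 to 60.2 CPM in the Scrib WT tumors (edgeR adjusted p = 0.233). Cfd, the gene of factor D, which cleaves factor B and is typical of fat cells, was at most 0.529 CPM in the Scrib null tumors and at 10.4, 45.5, 13.6 and 0 CPM in tumors WT 2, 3, 6 and 9 (edgeR adjusted p = 0.197). C1s2 reached 0.558 CPM in the Scrib null and 2.43 CPM in the Scrib WT tumors (edgeR adjusted p = 0.281). Masp1, the gene of a lectin route protease, had 4.93 ± 4.13 and 14.9 ± 11.7 CPM in Scrib null and Scrib WT tumors (SD, n = 5 and 4), and the log2 fold changes of C1rl and Colec11 were -0.60 and -0.33 (edgeR adjusted p from 0.347 to 0.849).

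The terminal components were barely transcribed. Hc, the mouse gene of C5, had 0.282 to 0.484 CPM in the Scrib null tumors and 0.564 to 1.15 CPM in the Scrib WT tumors (edgeR log2 fold change -0.95, adjusted p = 0.279). The groups did not overlap, as for 3.49% of all genes in that direction, and Hc had only 98 counts over all tumors together. C8a was listed at 0 in all tumors, and C6 and C8g, members of the membrane attack complex, had means of 1.61 and 0.560 CPM in Scrib null tumors and 2.58 and 0.630 CPM in Scrib WT tumors. C4a had 1.36 ± 0.515 and 2.13 ± 1.96 CPM in Scrib null and Scrib WT tumors (SD, n = 5 and 4). The log2 fold changes of C4a, C6 and C8g lay between -0.14 and -0.68 (edgeR adjusted p from 0.566 to 0.928).

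Among soluble regulators 3 of 5 tested genes had values below 0. The gene of factor I, Cfi, which inactivates C3b, had 2.22, 15.9, 47.2, 44.5 and 138.7 CPM in tumors null 7, 14, 15, 18 and 23, against 41.3, 80.6, 143.4 and 300.9 CPM in tumors WT 2, 3, 6 and 9. Tumors WT 6 and WT 9 lay above every Scrib null tumor, and WT 2 and WT 3 lay within the Scrib null range (edgeR log2 fold change -1.51, SE 0.89, adjusted p = 0.376). Vtn, the gene of vitronectin, and Cpn1, a subunit of the enzyme that trims C3a and C5a, had log2 fold changes of -1.37 and 1.53 (edgeR adjusted p = 0.307 and 0.368). Cpn1 was highest in tumor null 7, at 40.4 CPM, against 0.515 to 10.0 CPM in the Scrib WT tumors.

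Membrane regulators gave the smallest p among all the complement genes. Cr1l, the gene of Crry, which protects mouse cells from C3 and C4 deposition, had 36.9, 46.6, 38.9, 32.2 and 40.3 CPM in tumors null 7, 14, 15, 18 and 23, against 58.0, 111.1, 77.0 and 73.6 CPM in tumors WT 2, 3, 6 and 9. Every Scrib null tumor lay below every Scrib WT tumor, as for 3.49% of all genes in that direction. The mean was 39.0 ± 5.24 CPM in Scrib null tumors (SD, n = 5) and 79.9 ± 22.4 CPM in Scrib WT tumors (SD, n = 4), with a log2 fold change of -1.04 (SE 0.21, edgeR adjusted p = 0.197). DESeq2 called it, with adjusted p = 0.0106, and limma-voom did not, with adjusted p = 0.188. Susd4, another complement inhibitor, went the other way, with 8.36 ± 4.30 CPM in Scrib null tumors and 2.66 ± 2.27 CPM in Scrib WT tumors (SD, n = 5 and 4; edgeR log2 fold change 1.67, adjusted p = 0.242). The inhibitor genes Cd55, Cd46 and Cd59a had log2 fold changes of -1.02, -0.78 and -1.06 (edgeR adjusted p from 0.384 to 0.401). Cd59b lay above 0, at 0.31 (edgeR adjusted p = 0.712), so that 4 of 6 tested membrane regulators were below 0.

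All 7 tested receptor genes had values below 0. C3ar1, the gene of the C3a receptor, had 9.73 to 18.0 CPM in the Scrib null and 12.0 to 45.7 CPM in the Scrib WT tumors (edgeR log2 fold change -0.99, SE 0.40, adjusted p = 0.250). The log2 fold changes were -0.84 for the second C5a receptor gene C5ar2, -0.79 for Cd93 and -2.40 for Vsig4, a receptor of tissue macrophages that was highest in tumor WT 2, at 13.2 CPM (edgeR adjusted p from 0.331 to 0.435).

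**Figure D5:**
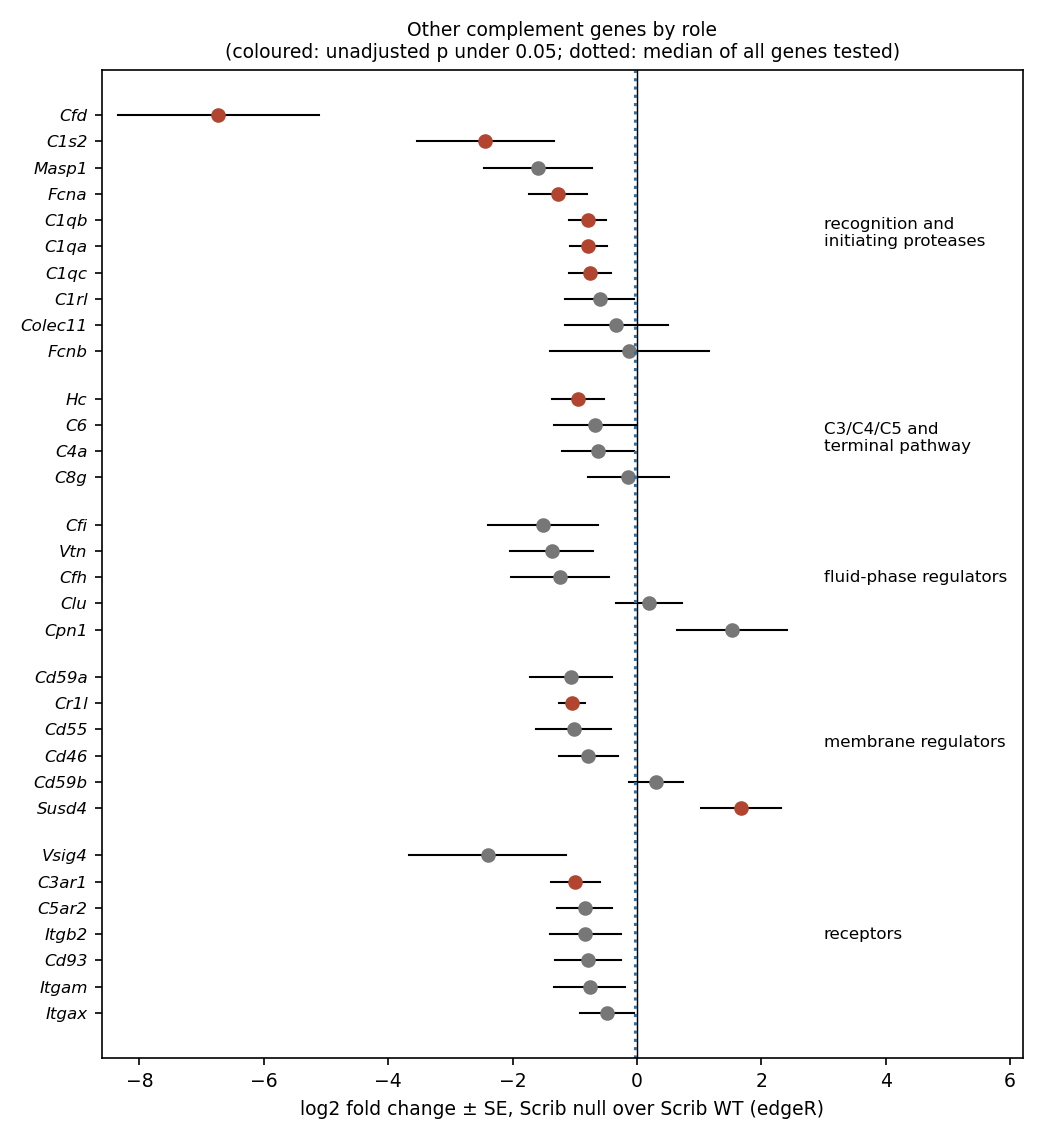
Log2 fold change, Scrib null over Scrib WT, of the 32 other complement genes tested (points), with the standard error of the edgeR fit (lines), in 5 groups by role. Most points lie left of 0; Cr1l has the shortest line, and Cpn1 and Susd4 lie farthest to the right.

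Markers of other cells were read beside these genes, and several lists lay below 0 almost throughout, against 52.2% of all genes. All 12 macrophage and monocyte markers had log2 fold changes below 0, and their summed level was 884.3 to 2128 CPM in the Scrib null tumors and 1786 to 3522 CPM in the Scrib WT tumors, with none at 0 in any tumor. All 10 fibroblast markers were below 0, with sums of 367.2 to 4544 CPM in Scrib null and 2186 to 9291 CPM in Scrib WT tumors, lowest in tumor null 7 and highest in WT 2. All 10 neutrophil markers were below 0, with sums of 105.8 to 700.8 CPM in Scrib null and 256 to 3145 CPM in Scrib WT tumors. Endothelial sums were 82.8 to 386.3 CPM and 346.6 to 716.2 CPM in Scrib null and Scrib WT tumors, with 9 of 10 below 0. No marker of any list passed the edgeR test over all genes. Their part in the complement differences was not tested. Of the 10 hepatocyte markers 6 were tested and 5 of these were below 0, tumor WT 2 held the highest sum, and Alb, Apoa1, Fgb, Fga, Ahsg and Tat were at 0 in some tumors. Of the remaining lists, T cell sums were 3.03 to 9.55 CPM and 6.69 to 13.5 CPM (7 of 7 tested below 0) in Scrib null and Scrib WT tumors, B and plasma cell sums 109.8 to 232.2 CPM and 186.6 to 279.3 CPM (7 of 8), and acinar sums 7.26 to 323.9 CPM and 20.0 to 570.5 CPM (4 of 8). Sums of the epithelial list were 7296 to 13861 CPM and 8767 to 12513 CPM in Scrib null and Scrib WT tumors, with 4 of 10 below 0.

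Interferon-gamma and acute phase signals, which are known to induce complement genes, were also read. Of 10 genes of interferon-gamma response and class II presentation 8 were below 0, against 52.2% of all genes, with a median log2 fold change of -0.74, and none passed the edgeR test (5 were lower at an unadjusted p under 0.05, against 10.0% of all genes). The class II genes H2-Aa, H2-Ab1 and H2-Eb1 were lower in Scrib null tumors with no overlap of the groups, as were 3.49% of all genes. H2-Aa had 144.0 ± 47.1 CPM in Scrib null tumors (SD, n = 5) and 378.7 ± 131.1 CPM in Scrib WT tumors (SD, n = 4; edgeR adjusted p = 0.197). Irf1, a transcription factor of the interferon response itself, was at -0.31 on the log2 fold change scale (edgeR adjusted p = 0.557). Of the acute phase list 7 of 10 tested genes were below 0, against 52.2% of all genes, with a median log2 fold change of -0.37. None passed the edgeR test, and 1, Hp, was lower at an unadjusted p under 0.05, against 10.0% of all genes. Lcn2, Stat3 and Cebpb lay above 0, at 0.73, 0.30 and 0.17 (edgeR adjusted p from 0.589 to 0.807). Haptoglobin, Hp, averaged 37.1 ± 18.7 CPM in Scrib null tumors (SD, n = 5) and 133.8 ± 78.0 CPM in Scrib WT tumors (SD, n = 4; edgeR adjusted p = 0.201).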

How the data were processed

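Messenger RNA libraries of whole frozen tumors were sequenced, and the authors deposited estimated counts per Ensembl gene, which per the submitters' processing notes came from Salmon 1.4.0 on GRCm38; DESeq 2 is also named there. The annotation release and whether strand was kept are not given in the sources used here. Symbols, coordinates and merged exon lengths came from GENCODE M21 on GRCm38. Estimated counts were rounded to whole numbers and filtered with filterByExpr (minimum count 10, minimum total 15), which left 16169 genes. Scrib null and Scrib WT tumors were compared in R 4.3.3 by the quasi-likelihood test of edgeR 4.0.16, with TMM scaling, group as the single term and p adjusted over all genes by Benjamini-Hochberg (threshold 0.05). The test was also run on simulated data, and that outcome is not reported here. The SE is the log2 fold change divided by the square root of F. Log2 CPM used a prior count of 2. Correlations used exact permutation of the 9 tumors. Paralogous transcripts were aligned with BLASTN 2.17.0. Promoters came from RefSeq (GRCm38.p6), and 5 of 9 complement genes were matched. Sex was read from Xist and Y-linked transcripts, and identifier ranges (TB19, and TB20 and later) from the labels.

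The complement genes and all lists were chosen with earlier results of these data known. From the 5 lists of other complement genes, those with an unadjusted p under 0.05 and up to 3 more per list were named, and for each complement gene the 2 genes of highest r among those of mean log2 CPM of at least 1. Gm16567, Zbtb12, Gm20547, C8a, Cd59b, Cebpb, Cebpd, Hp, Lcn2, Stat3, Irf1 and the class II genes were named outside that rule, after their values were seen. Some genes that these rules select are not reported here. Alternatives were RLE scaling, no filter and a strict filter (CPM of at least 1 in 4 tumors), DESeq2 1.42.0, limma-voom (limma 3.58.1), covariates for sex and identifier range, and tumors left out. The common biological coefficient of variation was 0.494, so for genes of moderate or high count the spread between tumors, not depth, sets the error.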

Additional observations from a re-analysis of the deposited data

Results flagged for a closer look

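Among the 18 sets of values of a complement gene in a group, 1 held a tumor far from the rest. Serping1 in tumor null 7 was at 20.3 CPM, against 106.7 to 190.6 CPM in the other Scrib null tumors, and the gap was 0.741 of the group's range in log2 CPM, above the critical value of 0.71 for 5 values. Chance alone flags about 1 in 20 sets. Without tumor null 7 the log2 fold change of Serping1 was -1.12 (edgeR adjusted p = 0.302). Fibroblast markers summed to 367.2 CPM in that tumor, the lowest of the 9; their part in the Serping1 value was not tested.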

How the results depend on the processing

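No complement gene passed the adjusted threshold under any of the 18 alternatives, and 8 of the 9 had a log2 fold change below 0 under 16 of them and all 9 under the other 2, with adjusted p of at least 0.106 (DESeq2). C3 reversed to -0.07 with the identifier range as covariate and ran from -0.06 to 0.57 with single tumors left out. The median log2 fold change stayed between -1.32 and -0.61 under single omissions. Over all genes, 0 were called higher and 2 lower, against 212 and 413 with DESeq2, 1 and 6 with no filter and 1 and 1 with limma-voom. Lower calls numbered 1 with the sex covariate, 0 with the identifier range, 0 to 1 with single tumors left out, and 0 without both tumors WT 3 and null 7 or without both null 15 and WT 2, an omission chosen after seeing the data. Other complement genes called numbered 1 with DESeq2. Correlated pairs numbered 13 with group means removed, 11 to 20 with single tumors left out and 7 without both WT 3 and null 7. The cause of these changes was not tested. The identifier range TB19 held 3 Scrib null tumors and 1 Scrib WT tumor, WT 2, and TB20 and later held 2 and 3. Tumor WT 2 was the highest of all for C4b and C2, and the TB19 differences rest on it. Within TB19 and within TB20 and later, log2 CPM differences were -2.99 and -0.43 for C4b, -2.80 and -0.62 for C2, -2.02 and -1.20 for Serping1, -1.90 and -0.73 for Cfp, -1.60 and -0.76 for C1s1, -1.52 and -0.62 for C1ra, -1.28 and -0.41 for C5ar1, -1.17 and -1.17 for Cfb, and 0.05 and -0.22 for C3. No paired analysis was possible because the groups share no tumor number.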
